A study of Mus musculus with 4 samples.

Results

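The Th17 culture was compared with freshly taken naive CD4 T cells across all genes, with 1 RNA-seq library on each side. Both came from CD4+ T cells of C57BL/6 spleens, wild type in genotype. Naive cells were selected from the spleen and went straight to RNA extraction, and Th17 cells had spent 3 days under Th17 differentiation conditions, whose cytokines the labels leave unstated. The other 2 libraries of the series were cultured too, Th0 cells with antibodies to CD3 and CD28 for 3 days and Treg cells for 3 days under Treg conditions, and their levels are given beside those of the pair. How many animals stood behind each library is not stated in the labels. Of 34745 genes in the table, 14523 had at least 10 reads in naive or in Th17 and were compared. The naive library held 11901949 reads and the Th17 library 12414372.

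Levels are in CPM, reads scaled to a common library size after correction of each library by its TMM factor. With 1 library a side, no test between the conditions could be made, and the differences have no replicate check. Differences are therefore given by size, as the ratio of CPM, followed by a 95% interval from the read counts that covers counting error only. A gene is called higher or lower where its ratio came to 2 or more on the scale of log2(CPM + 1) and its interval left out equality, and a smaller ratio is given as a value only. By this rule 2245 genes were higher in Th17, 15.5% of those compared, and 2565 were lower, 17.7%. The median gene stood at a log2 ratio of -0.01. No source used here gives the strandedness, so reads from sequence shared by overlapping genes could not be told apart by strand. Overlap was judged from the start and end of each gene, and whether exons are shared was not checked. Of the 338 genes open to naming, 62 overlap another gene that reached 1 CPM on either side, such as Stat3 with Stat5a, Foxp3 with Ccdc22, Il12rb2 with Serbp1, Tgfb3 with Ttll5, Whsc1 with Nelfa, Ccnd1 with Oraov1, Cdc20 with Elovl1, and, on the same strand, Cx3cr1 with Csrnp1 and Ifi203 with Mndal. A transcript of another gene matched at 95% identity or more over at least 300 nt for 181 of 1056 genes searched, and reads of such genes may have been divided. These near-identical copies are pointed out below for some genes only. Others named without that remark have them too, such as Stat5a, Bnip3, Odc1, Eef1a1, Hspa8, Dnaja1, Idi1, Gpx4, Btg1 and Elovl6.

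Naive CD4 T cells are small, resting lymphocytes that circulate between blood and lymphoid organs, kept quiet by factors such as KLF2 and FOXO1. Engagement of the antigen receptor with costimulation drives them into growth and division, and a cytokine mixture of IL-6 with TGF-beta steers them towards the Th17 fate. STAT3, BATF and IRF4 then help to open the genes of IL-17A and IL-17F, cytokines that recruit neutrophils to mucosal surfaces and to sites of autoimmune inflammation. Th17 cells are known to lean on HIF-1α, glycolysis and lipid synthesis, while regulatory T cells are marked by FOXP3.

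The label of the Th17 culture was checked against the T cell genes first. All 12 CD4 T cell markers, among them Cd4, the CD3 chains and the T cell receptor constant regions, were within 2-fold of each other in the pair, with sums of 4448 CPM in naive and 4579 CPM in Th17. Cd4 was at 698 CPM in naive and 1001 CPM in Th17. Il17a and Il17f, which define the lineage, were at 3 reads each in naive and at 1186 and 1547 reads in Th17.

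The naive library also held transcripts of other spleen cells. The 17 macrophage and monocyte markers added up to 6146 CPM in naive and 87.7 CPM in Th17, with 55.6 for Th0 and 103 for Treg, and all 17 were called lower. The 16 B cell markers added up to 4327 CPM in naive and 278 CPM in Th17, with 569 for Th0 and 129 for Treg, and all 16 were called lower. In the plot of marker sums the CD4 T cell list is level across the 4 libraries and both of these lists stand out in naive. Neutrophil markers went from 1749 CPM in naive to 17.3 in Th17, with 13 of 14 lower and Elane, Camp and Ltf without a read in Th17, and Ly6g at 5.55 CPM in naive and 6.55 CPM in Th17 was neither. Lists for erythroid cells and platelets (14 of 15 lower), dendritic cells (11 of 13) and stroma and endothelium (7 of 9) followed the same direction. CD8 T cell and NK cell genes gave 8 lower and 2 higher of 13, the higher ones being the granzyme genes Gzma at 12.5 CPM in naive and 156 CPM in Th17 and Gzmb at 9.96 CPM in naive and 29.2 CPM in Th17. The only dendritic cell gene called higher was Batf3, a transcription factor also used by activated T cells, at 7.43 CPM in naive and 19.5 CPM in Th17. Bst2, on the same list, was called neither way. In a bulk library, fewer cells of a type and less RNA per cell cannot be told apart. How much of any lower call below stems from other cells was not tested.

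**Figure D1:**
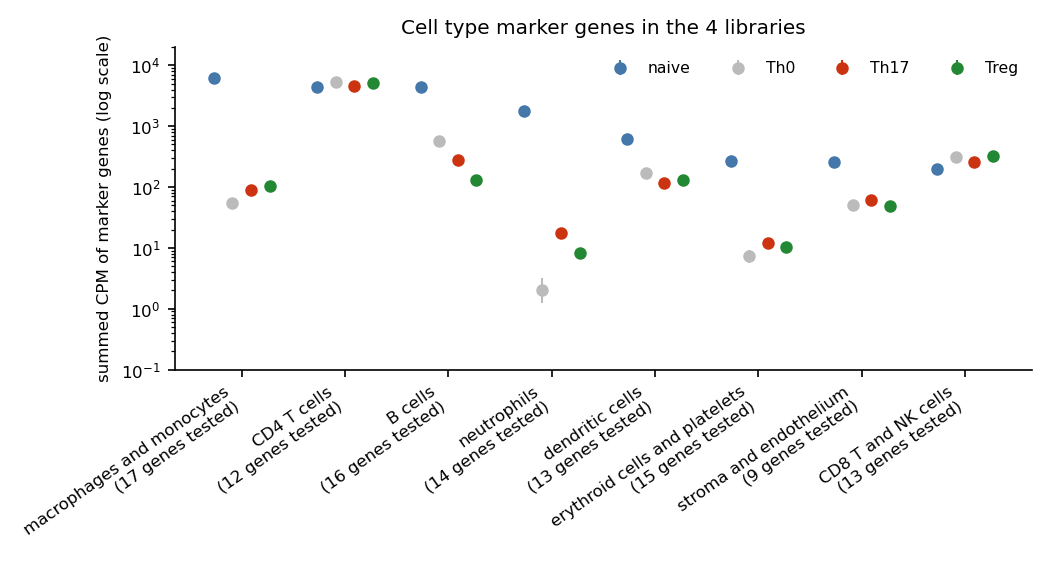
Summed CPM of the marker genes of 8 cell types (vertical log axis) in the naive, Th0, Th17 and Treg libraries, 1 point per library, with 95% Poisson intervals that are mostly smaller than the points. CD4 T cell markers lie between 4448 and 5281 CPM in all 4 libraries, and macrophage markers lie at 6146 CPM in naive and between 55.6 and 103 CPM in the cultures.

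Beside all genes, the comparison was repeated on the 9654 genes that also reached 10 CPM in Th0 or Treg, termed culture-expressed. Of these, 1521 (15.8%) were higher in Th17 and 878 (9.09%) were lower. This set still held 8 B cell and 3 macrophage markers, all lower. By its construction the restriction takes away genes that the cultures had lost. Of 159 genes with at least 10 CPM in naive and at most 3 reads in Th17, none reached 10 CPM in Th0 or Treg, and 18 were on the cell type lists. Immunoglobulin variable segments, which only B cells and plasma cells rearrange, made up a further block: 154 of 159 compared were lower and none was higher.

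**Figure D2:**
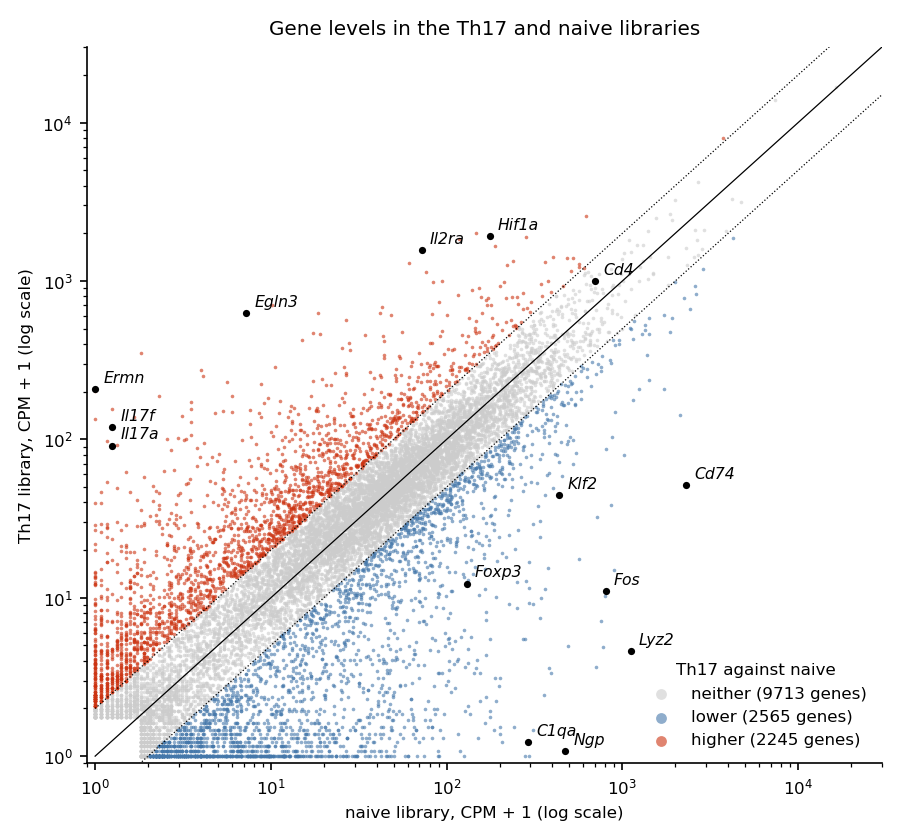
Level of each of the 14523 genes compared in the naive library (horizontal) and in the Th17 library (vertical), as CPM + 1 on log axes, with called genes in colour, the solid line marking equality and dotted lines 2-fold. Il17a and Il17f stand far above the line at 0.245 CPM in naive, and Lyz2 and C1qa far below it.

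Th17 genes were the clearest group of lineage genes on the higher side. Of 23 members compared in the list of Th17 cytokines and their regulators, 16 were called higher (69.6%, against 15.5% of all genes). None was called lower, and the median log2 ratio was 2.001. Among the cytokines, Il17a (ENSMUSG00000025929, chr1:20730905-20734496 of GRCm38) was at 0.245 CPM in naive and 90.4 CPM in Th17, against 0 in Th0 and 14.7 in Treg, which made it 369-fold higher (interval 126 to 1792) in Th17 than in naive. Il17f (chr1:20777146-20790617), its neighbour and its heterodimer partner, was at 0.245 CPM in naive and 118 CPM in Th17, against 0.458 in Th0 and 39.9 in Treg, or 481-fold higher (interval 164 to 2336). The wide intervals reflect the 3 naive reads behind each ratio. Il21, which acts back on Th17 cells through STAT3, was at 2.53 CPM in naive and 105 CPM in Th17, against 18.2 in Th0 and 32.01 in Treg, or 41.6-fold higher (interval 29.2 to 61.5). An unnamed antisense gene that overlaps Il21, Gm12534, went from 0.0817 to 45.8 CPM. Without strand information, any reads from sequence that the pair shares could not be told apart. Il22, whose product acts on epithelia, was at 0.0817 CPM in naive and 28.3 CPM in Th17, against 1.03 in Th0 and 3.34 in Treg, with 1 read in naive. Th17 stood 347-fold higher (interval 61.9 to 13749.7), and a near-identical gene copy exists.

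Lif, an IL-6 family cytokine, was among the 12 highest ratios of all genes, at 9.15 CPM in naive and 703 CPM in Th17, against 17.4 in Th0 and 509 in Treg, or 76.9-fold higher (interval 63.8 to 93.4). Csf2, the gene of GM-CSF that marks pathogenic Th17 cells, stayed low at 0.817 CPM in naive and 8.38 CPM in Th17. Il10 was low as well, at 3.35 CPM in naive and 10.2 CPM in Th17, though both were called higher. Ccl20 and Il9 had fewer than 10 reads on both sides and were not compared.

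Among the transcription factors of the list, Rora was at 46.8 CPM in naive and 192 CPM in Th17, 4.11-fold higher (interval 3.76 to 4.51). Irf4, needed for Th17 and for growth of activated T cells, was at 92.8 CPM in naive and 995 CPM in Th17, against 83.6 in Th0 and 685 in Treg, or 10.7-fold higher (interval 10.1 to 11.4). Of the pioneer factor pair IRF4 and BATF, the second changed less: Batf was at 32.01 CPM in naive and 68.4 CPM in Th17, 2.14-fold higher (interval 1.89 to 2.41). Ahr, the aryl hydrocarbon receptor that promotes Il22, was at 23.7 CPM in naive and 97.8 CPM in Th17, against 21.6 in Th0 and 127 in Treg. Its level in Treg was above that in Th17.

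Several genes central to Th17 fate were called neither way. For those with reads in the naive library, the cells they came from were not tested. Stat3, the transducer of IL-6, was at 308 CPM in naive and 556 CPM in Th17, 1.81-fold higher (interval 1.74 to 1.88). Maf was at 144 CPM in naive and 170.1 CPM in Th17, and Nfkbiz at 199 CPM in naive and 180.2 CPM in Th17. The IL-6 receptor chain Il6ra was at 320.00 CPM in naive and 261 CPM in Th17 while Th0 stood at 42.1 CPM, so the Th17 library was far nearer to naive than to the Th0 culture for this gene. Il6st, the signalling chain gp130, was at 219 CPM in naive and 113 CPM in Th17, just short of the lower call. Il23r, through which IL-23 stabilises Th17 cells, was near the detection floor at 0.572 CPM in naive and 1.45 CPM in Th17. Ccr6, the Th17 homing receptor, was at 12.7 CPM in naive and 25.99 CPM in Th17, against 0 in Th0 and 33.4 in Treg, with a log2 ratio of 0.97 just short of the threshold. The IL-1 and IL-12 family receptors Il1r1 and Il12rb1 were called higher, at 3.67 CPM in naive and 17.5 CPM in Th17 for the first and 17.6 CPM in naive and 85.7 CPM in Th17 for the second.

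**Figure D3:**
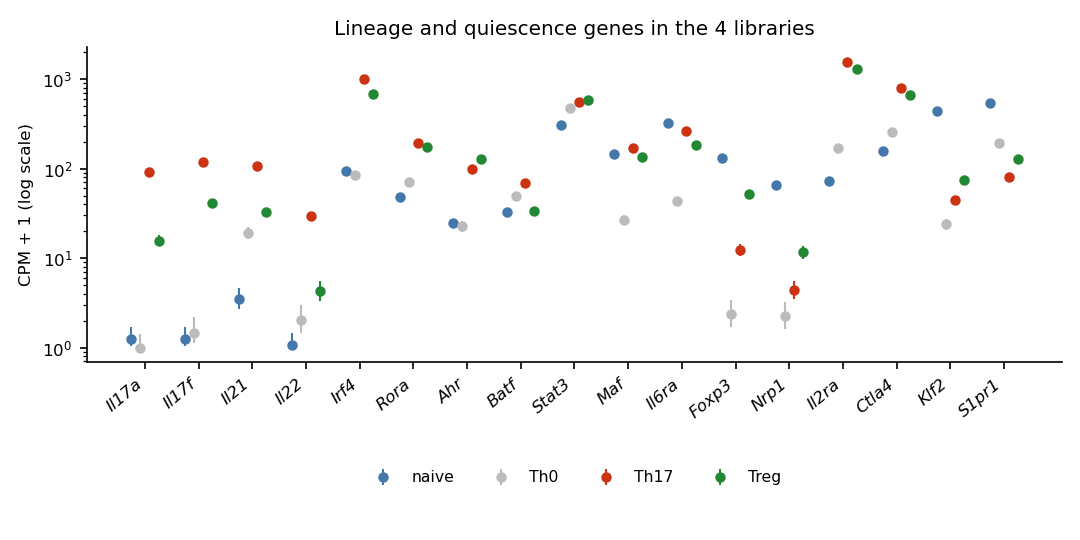
CPM + 1 (vertical log axis) of 17 lineage and quiescence genes in the naive, Th0, Th17 and Treg libraries, 1 point per library with its 95% Poisson interval. Il17a, Il17f, Il21 and Il22 are highest in Th17, Stat3, Maf and Il6ra differ by less than 2-fold between naive and Th17, and Foxp3, Nrp1, Klf2 and S1pr1 are highest in naive.

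Of 18 members of the Treg list 6 were higher (33.3%), 5 lower (27.8%) and 7 neither, against 15.5% higher and 17.7% lower of all genes, with a median of 0.38. Foxp3, the lineage factor, was at 129 CPM in naive and 11.3 CPM in Th17, against 1.37 in Th0 and 51.5 in Treg, or 11.4-fold lower (interval 9.65 to 13.6) in Th17. Nrp1, a surface protein of thymus-derived Treg cells, was at 64.5 CPM in naive and 3.43 CPM in Th17, against 1.26 in Th0 and 10.6 in Treg. Ikzf2 (Helios) was at 104 CPM in naive and 39.5 CPM in Th17, Entpd1 (CD39) at 71.9 CPM in naive and 31.2 CPM in Th17 and Itgae (CD103) at 18.05 CPM in naive and 6.48 CPM in Th17. The naive library, taken as CD4+ cells of the spleen, thus held the highest Foxp3, Nrp1, Ikzf2, Entpd1 and Itgae levels of the 4 libraries.

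The higher members include genes that conventional T cells also induce when activated. Il2ra, the high-affinity IL-2 receptor chain CD25, was at 70.96 CPM in naive and 1558 CPM in Th17, against 171 in Th0 and 1287 in Treg, or 21.96-fold higher (interval 20.5 to 23.5). Ctla4, the inhibitory receptor, was at 155 CPM in naive and 794 CPM in Th17, against 258 in Th0 and 665 in Treg. Tnfrsf18 (GITR) was at 42.5 CPM in naive and 445 CPM in Th17, and Ikzf4 (Eos) was at 19.7 CPM in naive and 221 CPM in Th17, against 21.6 in Th0 and 277 in Treg, or 11.2-fold higher (interval 9.84 to 12.9). Capg and Socs2 completed the higher group, and Nt5e, at 54.5 CPM in naive and 109 CPM in Th17, lay just under the threshold.

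Genes of the other helper lineages gave 4 higher and 5 lower of 16 compared, with a median of -0.53. Both shares were above the 15.5% and 17.7% of all genes. Tbx21, which encodes the Th1 factor T-bet, was at 23.5 CPM in naive and 6.097 CPM in Th17, against 67.8 in Th0 and 9.02 in Treg, and its target Cxcr3 was at 45.97 CPM in naive and 2.36 CPM in Th17, 19.5-fold lower (interval 13.6 to 28.9). Bcl6, the factor of follicular helper cells, was at 69.2 CPM in naive and 18.6 CPM in Th17, against 127 in Th0 and 11.2 in Treg. Gata3, the Th2 factor, was at 57.5 CPM in naive and 33.8 CPM in Th17 and was called neither way. Ifng and Il4 remained low, at 9.88 CPM in naive and 6.25 CPM in Th17 for the first and 0.898 CPM in naive and 0.762 CPM in Th17 for the second. The receptor chain Il12rb2 was the highest ratio of the list, at 16.2 CPM in naive and 467 CPM in Th17, against 175 in Th0 and 326 in Treg, followed by the skin-homing chemokine receptor Ccr4 at 15.4 CPM in naive and 158 CPM in Th17 and by Ccr8.

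Genes of the resting state were called lower more often than higher. Of 28 quiescence genes 13 were lower (46.4%, against 9.09% of all culture-expressed genes), 4 higher and 11 neither, with a median of -0.89, and all 28 were culture-expressed. Klf2, which holds T cells in quiescence and drives lymph node recirculation, was at 437 CPM in naive and 43.3 CPM in Th17, against 22.9 in Th0 and 74.6 in Treg, or 10.1-fold lower (interval 9.26 to 11.03). Its target S1pr1, the receptor for exit from lymphoid organs, was at 541 CPM in naive and 80.6 CPM in Th17, against 193 in Th0 and 127 in Treg. Klf3 was 11.1-fold lower (interval 9.93 to 12.3), at 311 CPM in naive and 28.1 CPM in Th17. The Schlafen genes Slfn1 and Slfn2, linked to T cell quiescence, were at 218 CPM in naive and 16.99 CPM in Th17 and at 369.8 CPM in naive and 58.5 CPM in Th17, and Slfn2 has a near-identical copy. The antiproliferative genes Btg1, Btg2 and Tob1 were lower too, Btg1 at 1724 CPM in naive and 609 CPM in Th17.

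Other naive markers did not go with them. Tcf7, the transcription factor TCF-1, was at 996 CPM in naive and 499 CPM in Th17 and stood right at the threshold, with a log2 ratio of -0.996. Its relative Lef1 was at 303 CPM in naive and 231 CPM in Th17, Foxo1 at 334 CPM in naive and 256 CPM in Th17 and Il7r, the survival receptor for IL-7, at 437 CPM in naive and 285 CPM in Th17, against 134 in Th0 and 302 in Treg. The lymph node homing receptor Ccr7 was at 295 CPM in naive and 406 CPM in Th17. On the higher side, Bach2, a repressor of effector genes, was at 53.97 CPM in naive and 179 CPM in Th17, against 99.6 in Th0 and 183 in Treg, or 3.32-fold higher (interval 3.04 to 3.62). Igfbp4, Satb1 and Socs3 were the other 3, with Satb1 at 508 CPM in naive and 1152 CPM in Th17.

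Chemokine and homing genes followed the same direction, with 19 of 34 lower (55.9%) and 2 higher (5.88%), against 17.7% and 15.5% of all genes (median -1.08). Itga4, the α4 integrin chain, was at 808 CPM in naive and 85.4 CPM in Th17, against 155 in Th0 and 171 in Treg, or 9.46-fold lower (interval 8.89 to 10.1). Itgb7, its gut-homing partner, was at 600.3 CPM in naive and 341 CPM in Th17 and was called neither way. The receptor genes Ccr9, Ccr3 and Cx3cr1, which myeloid cells also use, were at 28.99, 74.5 and 35.03 CPM in naive and under 1 CPM in Th17. Among culture-expressed members 8 of 21 were lower, against 9.09% of all culture-expressed genes.

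Receptors of activated T cells gave 11 higher (45.8%) and 5 lower (20.8%) of 24, against 15.5% and 17.7% of all genes. Tnfrsf9, the costimulatory receptor 4-1BB, was at 17.6 CPM in naive and 631 CPM in Th17, against 89.4 in Th0 and 574 in Treg, or 35.8-fold higher (interval 31.2 to 41.1). Tnfrsf4 (OX40) was at 33.4 CPM in naive and 458 CPM in Th17, against 183 in Th0 and 339 in Treg. Lag3, an inhibitory receptor, was at 27.2 CPM in naive and 367 CPM in Th17, and Icos at 93.1 CPM in naive and 479 CPM in Th17. Cd69 and Cd44, 2 customary activation markers, were at 223 CPM in naive and 119 CPM in Th17 and at 162 CPM in naive and 173 CPM in Th17 and were called neither way. Cd40lg, the ligand for B cell help, was at 80.4 CPM in naive and 23.7 CPM in Th17, 3.39-fold lower (interval 2.98 to 3.87). Havcr2 (TIM-3), at 39.8 CPM in naive and 1.07 CPM in Th17, is also carried by myeloid cells.

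Immediate early genes, which respond within minutes to receptor signals, were mostly lower. Of 23 members 16 were lower (69.6%) and 4 higher (17.4%), against 17.7% and 15.5% of all genes, with a median of -1.53. Fos was at 802 CPM in naive and 9.98 CPM in Th17, against 5.38 in Th0 and 11.1 in Treg, or 80.3-fold lower (interval 67.6 to 96.2). Fosb was at 379 CPM in naive and 2.59 CPM in Th17, 146-fold lower (interval 105 to 212), and Dusp1, a phosphatase of MAP kinases, at 568 CPM in naive and 16.6 CPM in Th17. Jun, Junb, Egr1, Ier5 and Zfp36 were lower as well, Junb at 1909.8 CPM in naive and 581 CPM in Th17, against 108 in Th0 and 419.6 in Treg. The 3 cultured libraries all stood below naive for Fos, Fosb, Jun, Junb and Egr1. The 4 higher members were the AP-1 genes Fosl2 and Fosl1, together with Ier3 and Nr4a3. Fosl2 was at 82.8 CPM in naive and 985 CPM in Th17, against 254 in Th0 and 591 in Treg, or 11.9-fold higher (interval 11.2 to 12.7). Fosl1 was at 0.735 CPM in naive and 13.4 CPM in Th17. Ier3 was at 14.9 CPM in naive and 78.7 CPM in Th17 and Nr4a3 at 17.3 CPM in naive and 55.2 CPM in Th17. Nr4a1, a reporter of receptor signalling, was at 629.7 CPM in naive and 504 CPM in Th17, against 298 in Th0 and 443 in Treg and was called neither way.

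Interferon stimulated genes were lower in 25 of 29 cases (86.2%, against 17.7% of all genes) and higher in none (median -3.01). Irf7, the amplifier of the response, was at 96.4 CPM in naive and 3.96 CPM in Th17, against 4.12 in Th0 and 7.75 in Treg, or 24.3-fold lower (interval 18.4 to 32.8). Oas2, a sensor of double-stranded RNA, was at 77.4 CPM in naive and 0.533 CPM in Th17, 145-fold lower (interval 70.2 to 362). Ifit1 was at 36.9 CPM in naive and 0.229 CPM in Th17, with 3 reads in Th17. Stat2, Bst2, Gbp2 and Usp18 were called neither way. Macrophages and dendritic cells also use these genes, their markers moved the same way as given above, and their part in this result was not tested. Of 13 culture-expressed members 9 were lower, against 9.09% of all culture-expressed genes, with a median of -1.62. The interferon-inducible genes Samd9l, Gbp7, Ifi203 and Pyhin1 were among the 12 lowest ratios of culture-expressed genes once cell type markers, receptor segments and unnamed loci were set aside. Samd9l was at 362 CPM in naive and 10.3 CPM in Th17, against 10.2 in Th0 and 14.2 in Treg, and Ifi203 at 488 CPM in naive and 3.96 CPM in Th17, against 64.6 in Th0 and 8.57 in Treg. Ifi203 and Pyhin1 have near-identical copies, so their reads may be divided among paralogs, and Mndal, which overlaps Ifi203, was at 291.3 CPM in naive and 10.5 CPM in Th17.

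Mitosis genes went one way in this pair. All 35 were called higher in Th17, with log2 ratios from 1.57 (Nuf2) to 3.54 (Ccnb1) and a median of 2.31. Their summed level was 944 CPM in naive, 5112 in Th17, 5802 in Treg and 10589 in Th0, so the Th17 library lay between naive and Th0. Ube2c, the ubiquitin-conjugating enzyme of the anaphase-promoting complex, was at 24.9 CPM in naive and 284 CPM in Th17, against 406 in Th0 and 289 in Treg, or 11.4-fold higher (interval 10.2 to 12.9). Top2a, which untangles sister chromatids, was at 115 CPM in naive and 809 CPM in Th17, against 2218 in Th0 and 890.01 in Treg, or 7.05-fold higher (interval 6.67 to 7.46). Anln, a scaffold of the cleavage furrow, was at 9.31 CPM in naive and 103 CPM in Th17, and Cdc20, an activator of the anaphase-promoting complex, was at 18.9 CPM in naive and 163 CPM in Th17. Mki67, the gene of the Ki-67 antigen, was already at 218 CPM in naive and reached 781 in Th17. Ccnb1, Cdc20, Mad2l1 and Ube2c have near-identical copies.

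Genes of mitosis are known to be repressed in resting cells through a promoter element called CHR, bound by the DREAM complex, and activated through CCAAT boxes. The RefSeq promoter windows of GRCm38.p6, 250 bases before to 50 after each start site, were searched on both strands for TTTGAA (CHR) and for CCAAT. The CHR letters were found in 24 of 31 mitosis genes with a window (77.4%), against 14.5% of the 10244 compared genes with a window. CCAAT was found in 23 of 31 (74.2%), against 42.9%. Among compared genes, CHR letters were in 17.5% of the higher, 16.4% of the lower and 13.4% of the other genes, so the motif itself was spread over all calls. The Ube2c window is shown because it holds both elements near the start site, at chr2:164769679-164769978 on the plus strand, with the matches of either strand in capitals (the CHR as TTCAAA at position -29 from the start site, and 6 CCAAT or ATTGG boxes, 2 of which overlap):
Ube2c: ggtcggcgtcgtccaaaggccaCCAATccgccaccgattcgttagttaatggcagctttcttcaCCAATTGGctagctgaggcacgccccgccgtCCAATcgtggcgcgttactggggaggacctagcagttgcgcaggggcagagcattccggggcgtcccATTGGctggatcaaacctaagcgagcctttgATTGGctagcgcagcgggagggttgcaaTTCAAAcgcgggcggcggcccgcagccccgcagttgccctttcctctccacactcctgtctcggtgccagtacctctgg

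DNA replication genes shifted less. Of 35 members 8 were higher, 22.9% against 15.5% of all genes, none was lower, and the median was 0.50. Mcm10, which loads polymerase at the fork, was at 9.798 CPM in naive and 37.04 CPM in Th17, against 61.6 in Th0 and 43.2 in Treg, and Gins2 and Cdc45, partners in the replicative helicase, were higher as well. Pole, the leading strand polymerase, was at 20.7 CPM in naive and 69.6 CPM in Th17. Most of the MCM helicase genes and Pcna were called neither way, with Mcm2 at 98.5 CPM in naive and 97.5 CPM in Th17 and Pcna at 128 CPM in naive and 101 CPM in Th17. Uhrf1, which guides maintenance of DNA methylation at the fork, was at 44.5 CPM in naive and 129 CPM in Th17, against 170.1 in Th0 and 146 in Treg, or 2.89-fold higher (interval 2.62 to 3.19), and has a near-identical copy. An E2F element (TTCCCGC or TTTGGCGC) was found in 15 of 28 replication genes with a window (53.6%), against 10.6% of compared genes. It was in 12.1% of the higher, 6.93% of the lower and 11.2% of the other compared genes. The Uhrf1 window, chr17:56303087-56303386 on the plus strand, is shown as a called member with such a match, in capitals at position -48:
Uhrf1: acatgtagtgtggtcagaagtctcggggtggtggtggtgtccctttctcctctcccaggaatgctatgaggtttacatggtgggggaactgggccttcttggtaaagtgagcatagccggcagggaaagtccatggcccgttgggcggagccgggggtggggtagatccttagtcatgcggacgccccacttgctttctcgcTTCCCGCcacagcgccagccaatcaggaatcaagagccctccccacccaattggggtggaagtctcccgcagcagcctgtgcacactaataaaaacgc

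Regulators of G1 gave 9 higher (34.6%) and 2 lower (7.69%) of 26, against 15.5% and 17.7% of all genes. Cdkn1a, the inhibitor p21, was the highest, at 13.96 CPM in naive and 423 CPM in Th17, against 215 in Th0 and 363 in Treg, or 30.3-fold higher (interval 25.998 to 35.5). Cyclin D2 and its kinase were higher, Ccnd2 at 524 CPM in naive and 1399 CPM in Th17 and Cdk6 at 59.4 CPM in naive and 224 CPM in Th17. Ccnd1, cyclin D1, was at 135 CPM in naive and 0.838 CPM in Th17, against 0.229 in Th0 and 0.1804 in Treg, or 161-fold lower (interval 89.97 to 324). It was under 1 CPM in all 3 cultures. Myc was at 58.5 CPM in naive and 64.9 CPM in Th17 and Cdkn1b (p27) at 200.3 CPM in naive and 199.7 CPM in Th17, both called neither way.

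Glycolysis genes were higher at nearly every step. Of 23 genes 19 were higher (82.6%, against 15.5% of all genes) and none lower, with a median of 2.06. The summed level went from 3056 CPM in naive to 14291 in Th17, above the 5779 of Th0 and the 9223 of Treg. At entry, the glucose transporters Slc2a1 and Slc2a3 were at 43.1 CPM in naive and 327 CPM in Th17, against 18.5 in Th0 and 120.3 in Treg for the first and 98.96 CPM in naive and 611 CPM in Th17, against 119 in Th0 and 168 in Treg for the second. Hk2, the inducible hexokinase, was at 26.7 CPM in naive and 407 CPM in Th17, against 3.21 in Th0 and 194 in Treg, or 15.3-fold higher (interval 13.6 to 17.1). Hk1, the constitutive form, was called neither way at 148 CPM in naive and 236 CPM in Th17. Along the trunk of the pathway, Aldoc was at 4.98 CPM in naive and 149 CPM in Th17, against 51.6 in Th0 and 108 in Treg, or 29.9-fold higher (interval 23.1 to 39.2), and Tpi1 at 47.2 CPM in naive and 605 CPM in Th17, against 109 in Th0 and 399.6 in Treg, or 12.8-fold higher (interval 11.8 to 13.98). Pgk1 was at 146 CPM in naive and 2022 CPM in Th17, against 728 in Th0 and 1306 in Treg and Pkm, which makes pyruvate, at 621 CPM in naive and 2587 CPM in Th17, against 831 in Th0 and 1704 in Treg. Both were among the 10 largest gains in CPM of all genes. Ldha, which makes lactate, was at 402 CPM in naive and 1413 CPM in Th17, and the lactate exporter Slc16a3 (MCT4) at 22.2 CPM in naive and 260.3 CPM in Th17, against 21.6 in Th0 and 149.9 in Treg. The 4 members that were not called were Pfkfb3, Hk1, Pdk1 and Pfkfb4. Processed pseudogenes copy many of these genes (Aldoa, Pgk1, Pkm, Gapdh, Ldha, Eno1, Pgam1 and Gpi1 among them), so reads could be divided between copies.

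HIF-1α drives many glycolytic genes through the core hypoxia response element. Its letters, ACGTG on either strand, were found in 14 of 22 glycolysis genes with a window (63.6%), against 28.8% of compared genes, and in 30.7% of the higher, 22.2% of the lower and 29.9% of the other compared genes. The window of Aldoc, the member with the largest ratio, at chr11:78322823-78323122 on the plus strand, holds it as CACGT at position 27 after the start site, in capitals:
Aldoc: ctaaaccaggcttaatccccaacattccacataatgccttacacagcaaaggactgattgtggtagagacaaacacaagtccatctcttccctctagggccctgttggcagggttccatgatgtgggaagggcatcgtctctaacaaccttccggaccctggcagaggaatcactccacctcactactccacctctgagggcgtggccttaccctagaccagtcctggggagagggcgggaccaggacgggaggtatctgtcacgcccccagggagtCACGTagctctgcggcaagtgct

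Oxygen sensing genes and hypoxia targets outside glycolysis gave 15 higher of 24 (62.5%, against 15.5% of all genes) and none lower, with a median of 1.54. Hif1a itself was at 175 CPM in naive and 1917 CPM in Th17, against 1834 in Th0 and 1378 in Treg, or 10.96-fold higher (interval 10.5 to 11.5), so Th0 stood close to Th17. Egln3, a prolyl hydroxylase that marks HIF-1α for degradation and is itself a HIF target, was at 6.21 CPM in naive and 624 CPM in Th17, against 13.2 in Th0 and 198 in Treg, or 101-fold higher (interval 80.3 to 128). Vegfa, the angiogenic factor, was at 4.33 CPM in naive and 149.98 CPM in Th17, against 30.9 in Th0 and 71.1 in Treg, or 34.7-fold higher (interval 26.4 to 46.4). Bnip3, of mitophagy, was at 6.61 CPM in naive and 124 CPM in Th17, against 11.9 in Th0 and 45.5 in Treg, and Ero1l, an oxidase of the endoplasmic reticulum, at 41.6 CPM in naive and 679 CPM in Th17, against 81.7 in Th0 and 148 in Treg. P4ha2, of collagen hydroxylation, was at 2.78 CPM in naive and 67.4 CPM in Th17. For Egln3, Vegfa, Bnip3, Ero1l and P4ha2 the Th17 level was above all 3 other libraries. Arnt, the partner of HIF-1α, and the regulators Vhl, Egln2 and Hif1an were called neither way.

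The mitochondrial lists stayed near equality. Of 32 genes of the TCA cycle and pyruvate entry 3 were higher (9.38%) and 1 lower (3.12%, median 0.06), against 15.5% and 17.7% of all genes. Of 37 nuclear encoded respiratory chain genes none was higher and 1 lower (2.70%, median 0.12). Pcx, pyruvate carboxylase, was the exception, at 4.41 CPM in naive and 27.4 CPM in Th17, against 2.18 in Th0 and 23.8 in Treg. Mitochondrially encoded genes took 4.71% of reads in naive and 3.49% in Th17.

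**Figure D4:**
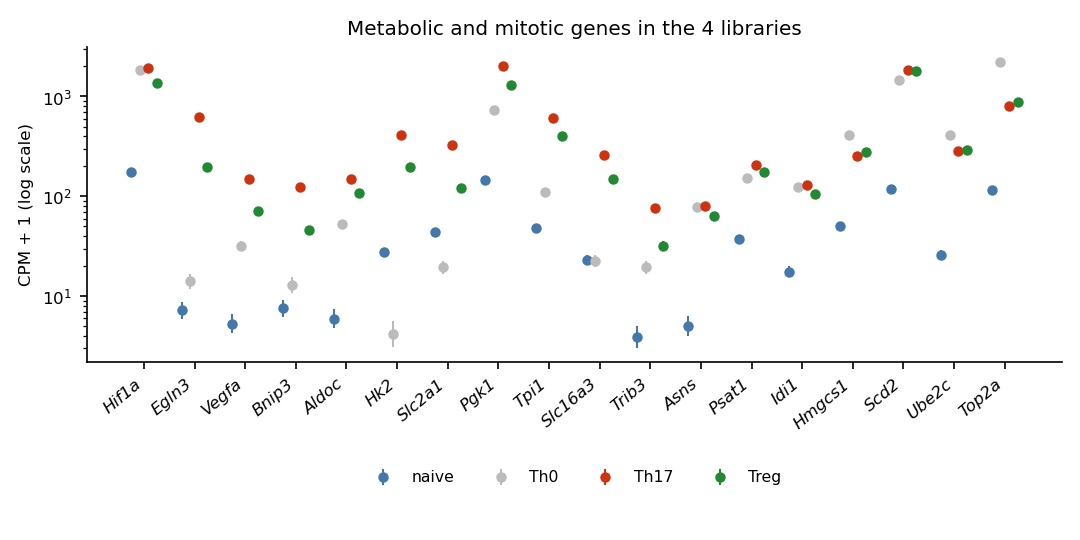
CPM + 1 (vertical log axis) of 18 metabolic and mitotic genes in the naive, Th0, Th17 and Treg libraries, 1 point per library with its 95% Poisson interval. Hypoxia targets and glycolysis genes from Egln3 to Slc16a3 are highest in Th17, whereas Top2a, Ube2c and Hmgcs1 are highest in Th0. Naive is the lowest of the 4 for all but Hk2, Slc2a1 and Slc16a3.

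Genes of serine, one-carbon and amino acid stress metabolism, most of them targets of the factor ATF4, were higher in 23 of 26 cases. That was 88.5%, against 15.5% of all genes, and none was lower (median 1.85). Atf4 was at 231 CPM in naive and 565 CPM in Th17, against 827 in Th0 and 353 in Treg, or 2.45-fold higher (interval 2.35 to 2.56). Pycr1, of proline synthesis, was at 1.22 CPM in naive and 46.2 CPM in Th17, against 10.99 in Th0 and 27.3 in Treg, and Trib3, an ATF4-induced pseudokinase, at 2.94 CPM in naive and 75.98 CPM in Th17, against 18.4 in Th0 and 30.9 in Treg. Asns, asparagine synthetase, was at 4.08 CPM in naive and 79.6 CPM in Th17, against 77.96 in Th0 and 62.9 in Treg, or 19.5-fold higher (interval 14.7 to 26.4). Aldh1l2 and Cth had no reads in naive and stood at 13.5 and 7.24 CPM in Th17, at least 55.1-fold higher for Aldh1l2. In serine and folate metabolism, Psat1 was at 36.4 CPM in naive and 205 CPM in Th17, Mthfd2 at 50.8 CPM in naive and 243 CPM in Th17 and Shmt2 at 88.1 CPM in naive and 290.4 CPM in Th17. The cytosolic counterparts Shmt1 and Mthfd1 were called neither way. The tRNA synthetase genes Cars, Sars, Gars, Aars, Mars and Nars were all higher, and Wars was not called.

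Amino acid transporters gave 4 higher and 4 lower of 17 (23.5% each way), against 15.5% and 17.7% of all genes. Slc1a4, for serine and alanine, was at 1.47 CPM in naive and 62.6 CPM in Th17, against 6.53 in Th0 and 37.7 in Treg, or 42.6-fold higher (interval 26.8 to 72.2). Slc7a5, the leucine carrier, was at 42.9 CPM in naive and 419 CPM in Th17, against 128 in Th0 and 235 in Treg, while its heavy chain Slc3a2 was called neither way at 136 CPM in naive and 225 CPM in Th17. Slc7a8 and Slc43a2 were lower, Slc43a2 at 112 CPM in naive and 20.9 CPM in Th17. In polyamine synthesis 4 of 14 were higher (28.6%) and 1 lower (7.14%), against the same 15.5% and 17.7% of all genes. Smox, spermine oxidase, was at 25.6 CPM in naive and 254 CPM in Th17, against 53.5 in Th0 and 139 in Treg. The rate-limiting Odc1 was at 152 CPM in naive and 476 CPM in Th17. Nucleotide synthesis gave 2 higher (7.69%) and 1 lower (3.85%) of 26 (median 0.32), both below the shares of all genes.

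Cholesterol genes were higher along most of the pathway. Of 26 compared 17 were higher (65.4%) and 2 lower (7.69%), against 15.5% and 17.7% of all genes, with a median of 1.66. Hmgcs1, at the start of the mevalonate branch, was at 49.7 CPM in naive and 255 CPM in Th17, against 413 in Th0 and 275 in Treg, or 5.13-fold higher (interval 4.701 to 5.598). Idi1 was at 16.7 CPM in naive and 129 CPM in Th17, against 124 in Th0 and 105 in Treg and Sqle, squalene epoxidase, at 21.8 CPM in naive and 98.99 CPM in Th17. Cyp51, which demethylates lanosterol, was at 42.9 CPM in naive and 185 CPM in Th17, against 224 in Th0 and 180.2 in Treg. Stard4, a sterol carrier, was at 32.7 CPM in naive and 191 CPM in Th17. The 2 lower genes belong to the opposite side of sterol balance: Abcg1, which exports cholesterol, was at 118 CPM in naive and 42.5 CPM in Th17, and Mylip, a ubiquitin ligase that limits cholesterol uptake, was at 74.7 CPM in naive and 12.4 CPM in Th17, against 7.33 in Th0 and 19.03 in Treg. Srebf2, which drives the pathway, was called neither way at 336 CPM in naive and 559 CPM in Th17. The letters TCACCCCAC of a sterol element were rare, in 1 of 18 cholesterol genes with a window and in 0.654% of compared genes. That gene was Hmgcs1, at chr13:119690101-119690400 on the plus strand, shown with the match in capitals at position -137:
Hmgcs1: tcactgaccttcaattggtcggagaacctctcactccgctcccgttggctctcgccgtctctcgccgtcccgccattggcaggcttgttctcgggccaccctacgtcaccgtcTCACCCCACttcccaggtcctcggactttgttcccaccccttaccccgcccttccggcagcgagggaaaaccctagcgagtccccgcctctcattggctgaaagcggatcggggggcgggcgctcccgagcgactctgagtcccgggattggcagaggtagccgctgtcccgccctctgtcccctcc

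In fatty acid synthesis and desaturation 7 of 20 were higher and none lower (median 0.48), against 15.5% and 17.7% of all genes. Scd2, a stearoyl-CoA desaturase, was at 117 CPM in naive and 1833 CPM in Th17, against 1458 in Th0 and 1789 in Treg, or 15.7-fold higher (interval 14.9 to 16.6). Its close relative Scd1 was called neither way at 126 CPM in naive and 138 CPM in Th17, against 43.7 in Th0 and 291 in Treg, and both have near-identical copies. Fasn was at 216 CPM in naive and 547 CPM in Th17, Elovl6 at 22.1 CPM in naive and 114 CPM in Th17 and Fads2 at 4.001 CPM in naive and 37.3 CPM in Th17. In fatty acid oxidation 4 of 20 were higher, a share near the 15.5% of all genes, and 1 was lower, below the 17.7%. Acadl was higher at 59.4 CPM in naive and 162 CPM in Th17. The gatekeeper Cpt1a was lower at 124 CPM in naive and 49.5 CPM in Th17.

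**Figure D5:**
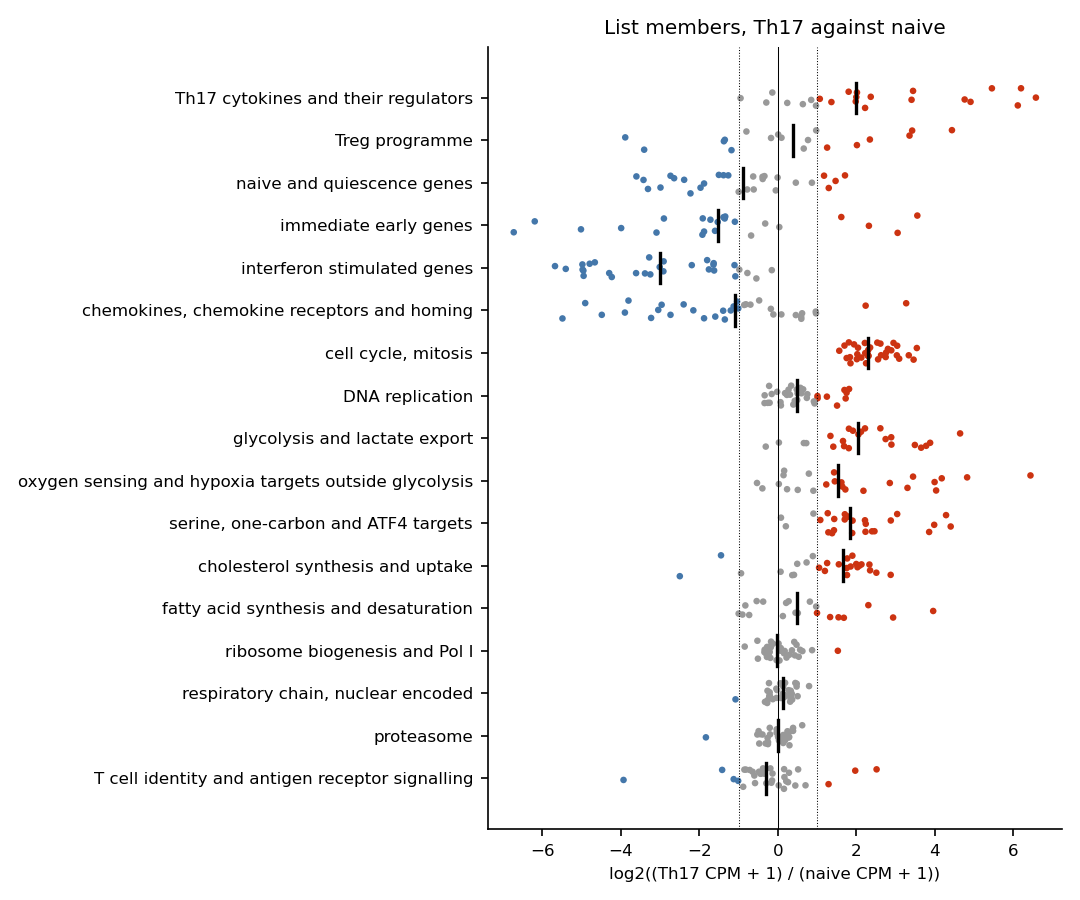
Log2 ratio of CPM + 1 of Th17 over naive (horizontal) for each compared member of 17 gene lists, with 1 point per gene coloured by its call (red higher, blue lower, grey neither), a black bar at the list median and dotted lines at 2-fold. The mitosis members all lie at 1.57 or more, while ribosome biogenesis, respiratory chain and proteasome members gather around 0.

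Most genes of the growth machinery lists were called neither way. Medians of the ribosomal protein and translation factor lists lay above 0, at 0.43 and 0.57. CPM is a share of the library, so amounts per cell were not measured. Ribosome biogenesis gave 1 higher of 35 (2.86%), with a median of -0.03, and cytosolic ribosomal proteins 2 higher of 49 (4.08%, median 0.43). The proteasome gave none higher and 1 lower of 31 (3.23%, median 0.01). Among all genes 15.5% were higher and 17.7% lower. The single higher ribosome biogenesis gene was Npm1, nucleophosmin, at 485 CPM in naive and 1403 CPM in Th17, against 2012 in Th0 and 949 in Treg, which has near-identical copies. Polr1b, an RNA polymerase I subunit, was at 45.4 CPM in naive and 37.4 CPM in Th17, against 2.63 in Th0 and 25.5 in Treg, a level in Th17 close to naive and far above Th0. The summed level of the ribosomal protein genes was 23573 CPM in naive, 32092 in Th17 and 77355 in Th0. Translation factors gave 6 higher of 31 (19.4%), near the 15.5% of all genes, and none lower. The largest ratio among them was that of Eif4ebp1, the mTOR-regulated repressor of cap-dependent translation and an ATF4 target. It was at 17.2 CPM in naive and 117 CPM in Th17, against 65.9 in Th0 and 70.97 in Treg. The elongation factors Eef1a1 and Eef2 had the largest absolute gains, Eef1a1 going from 7423 to 13924 CPM, 1.88-fold.

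Of 26 chaperone genes 8 were lower (30.8%, against 17.7% of all genes), 2 higher and 16 neither. Hsph1 was at 402 CPM in naive and 48.01 CPM in Th17, against 298 in Th0 and 52.5 in Treg, or 8.38-fold lower (interval 7.71 to 9.12), and Dnaja1 at 302 CPM in naive and 65.8 CPM in Th17. Hspa5, the chaperone of the endoplasmic reticulum, was at 665 CPM in naive and 216 CPM in Th17, against 182 in Th0 and 283 in Treg. In the unfolded protein response Dnajb9 was at 90.8 CPM in naive and 10.9 CPM in Th17, while its activator Xbp1 was higher at 129.99 CPM in naive and 281 CPM in Th17. Hspa8, one of the 10 largest losses in CPM, was at 2822 CPM in naive and 1589.7 CPM in Th17 and did not reach the 2-fold rule.

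Antigen receptor signalling genes were mostly called neither way, with 3 higher (8.57%) and 4 lower (11.4%) of 35 (median -0.29), against 15.5% and 17.7% of all genes. Malt1, a protease that links the antigen receptor to NF-κB, was at 219 CPM in naive and 1259 CPM in Th17, against 591 in Th0 and 716 in Treg, or 5.75-fold higher (interval 5.52 to 5.99), though its partner Bcl10 was called neither way. Cblb, a ubiquitin ligase that restrains activation, was at 179 CPM in naive and 706 CPM in Th17. Nfatc1 was at 284 CPM in naive and 106 CPM in Th17 and Trat1, an adaptor of the receptor complex, at 42.1 CPM in naive and 1.83 CPM in Th17, against 2.52 in Th0 and 3.07 in Treg. Of 8 Gimap GTPases, which support lymphocyte survival, 1 was higher and 1 lower, Gimap7 at 54.6 CPM in naive and 128 CPM in Th17 and Gimap6 at 1153 CPM in naive and 427 CPM in Th17. Of 22 NF-κB genes 3 were higher (13.6%) and 2 lower (9.09%), both below the 15.5% and 17.7% of all genes. Bcl3 was at 53.7 CPM in naive and 254 CPM in Th17, and the inhibitor Tnfaip3 (A20) at 912 CPM in naive and 147 CPM in Th17, against 196 in Th0 and 114 in Treg, or 6.22-fold lower (interval 5.92 to 6.53).

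Cytokine receptor and JAK-STAT genes gave 10 higher (27.8%) and 6 lower (16.7%) of 36, against 15.5% and 17.7% of all genes. The lower share was thus near that of all genes. Several genes of IL-2 signalling were among the higher ones. Beside Il2ra, the second chain Il2rb was at 302 CPM in naive and 739 CPM in Th17. The kinase gene Jak3 was at 238 CPM in naive and 1344 CPM in Th17, against 644 in Th0 and 1080.2 in Treg, or 5.66-fold higher (interval 5.44 to 5.89). Stat5a was at 101 CPM in naive and 369 CPM in Th17, against 369 in Th0 and 244 in Treg, and Cish, a feedback inhibitor induced by STAT5, at 42.9 CPM in naive and 339 CPM in Th17, against 155 in Th0 and 309.9 in Treg. Il2rg, the common chain, was called neither way at 576 CPM in naive and 384 CPM in Th17. Socs1 and Socs3, inhibitors of cytokine signals, were at 25.1 CPM in naive and 172 CPM in Th17 for the first and 154 CPM in naive and 380.5 CPM in Th17 for the second. Jak1 was lower at 959.5 CPM in naive and 424 CPM in Th17.

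The TGF-beta list gave 6 higher and 4 lower of 23 (26.1% and 17.4%, against 15.5% and 17.7% of all genes), with a median of -0.20. Among ligands, Tgfb3 was at 3.84 CPM in naive and 145 CPM in Th17, against 8.93 in Th0 and 70.1 in Treg, or 37.7-fold higher (interval 28.3 to 51.5), and Tgfb1 was called neither way at 250.02 CPM in naive and 217 CPM in Th17. Among receptors, Tgfbr2 was at 434 CPM in naive and 71.1 CPM in Th17, against 143 in Th0 and 165 in Treg, or 6.105-fold lower (interval 5.69 to 6.55), and Tgfbr1 at 83.5 CPM in naive and 55.4 CPM in Th17 was not called. The transducers Smad2, Smad3 and Smad4 were not called either. Of the targets and feedback genes, Skil was at 42.9 CPM in naive and 107 CPM in Th17, against 24.8 in Th0 and 133 in Treg and Pmepa1 at 14.3 CPM in naive and 79.6 CPM in Th17, against 22.3 in Th0 and 119 in Treg, both higher. Smad7, a feedback inhibitor, was lower at 165 CPM in naive and 53.1 CPM in Th17, against 58.5 in Th0 and 62.7 in Treg, and Tgfbi, which macrophages also make, was at 164 CPM in naive and 0.6097 CPM in Th17.

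Cell death genes gave 6 higher and 7 lower of 30 (20.0% and 23.3%), near the 15.5% and 17.7% of all genes. The survival genes Bcl2 and Bcl2l1 were at 167 CPM in naive and 763 CPM in Th17, against 203 in Th0 and 595 in Treg and at 13.7 CPM in naive and 60.1 CPM in Th17. Pmaip1 (NOXA) was at 128 CPM in naive and 31.02 CPM in Th17, and Casp1, at 30.5 CPM in naive and 1.75 CPM in Th17, is also carried by myeloid cells. Antioxidant genes gave 4 higher (16.7%) and 7 lower (29.2%) of 24, the higher share being near that of all genes. Prdx4 was at 11.1 CPM in naive and 46.4 CPM in Th17 and Gpx4 at 30.6 CPM in naive and 73.997 CPM in Th17. Gpx1 was at 328 CPM in naive and 52.1 CPM in Th17, against 91.2 in Th0 and 73.7 in Treg.

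The series concerns the H3K36 methyltransferase Setd2 and the phospholipid enzyme Lpcat4 in T cells, which here were wild type. Setd2 (ENSMUSG00000044791, chr9:110532597-110618633), which trimethylates lysine 36 of histone H3 behind elongating RNA polymerase II, was at 246 CPM in naive and 149.6 CPM in Th17, against 341 in Th0 and 133 in Treg, 1.64-fold lower (interval 1.55 to 1.74) in Th17 and short of the 2-fold rule. Of the 8 H3K36 enzymes 2 were higher. Smyd2 was at 9.06 CPM in naive and 39.6 CPM in Th17, against 6.98 in Th0 and 33.003 in Treg, or 4.36-fold higher (interval 3.55 to 5.41). Whsc1 (NSD2), a dimethylase, was at 52.99 CPM in naive and 138 CPM in Th17, against 389 in Th0 and 165 in Treg, or 2.603-fold higher (interval 2.38 to 2.85). Nsd1, Whsc1l1, Ash1l, Setmar and Setd3 were called neither way.

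Lpcat4 (ENSMUSG00000027134, chr2:112239468-112247111), a lysophospholipid acyltransferase of the Lands cycle that rebuilds membrane phospholipids, was at 49.6 CPM in naive and 43.97 CPM in Th17, against 60.6 in Th0 and 41.7 in Treg, 1.13-fold lower (interval 1.004 to 1.27) in Th17 and not called. Among the 15 enzymes of this kind 3 were higher (20.0%) and 2 lower (13.3%), shares near the 15.5% and 17.7% of all genes. Agpat4 was at 3.84 CPM in naive and 18.4 CPM in Th17, against 19.2 in Th0 and 12.5 in Treg, Agpat5 at 29.3 CPM in naive and 67.98 CPM in Th17, against 39.04 in Th0 and 82.6 in Treg and Mboat2, at 0.653 CPM in naive and 4.34 CPM in Th17, was low throughout. Lpcat2, an enzyme of inflammatory phagocytes, was at 31.6 CPM in naive and 0.0762 CPM in Th17, against 0.229 in Th0 and 0.541 in Treg, with 1 read in Th17, and Mboat1 was at 21.6 CPM in naive and 10.2 CPM in Th17. Lpcat1 and Lpcat3 were called neither way, at 79.8 CPM in naive and 76.7 CPM in Th17 for the first and 31.1 CPM in naive and 46.6 CPM in Th17 for the second. Of 14 genes of PRC2, DNA methylation and TET 1 was higher, Uhrf1, and none lower.

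The largest ratios fell on genes outside the lists as well. Ermn (ENSMUSG00000026830, chr2:58045113-58052864), best known from oligodendrocytes, had no reads in naive and 2720 in Th17, with levels of 0 CPM in naive and 207 CPM in Th17, against 4.81 in Th0 and 182 in Treg, or at least 846-fold higher. Il24, of the IL-10 cytokine family, likewise had none in naive and was at 0 CPM in naive and 202 CPM in Th17, against 5.84 in Th0 and 66.4 in Treg, or at least 826-fold higher. Gipr, the receptor of an incretin hormone, was at 0 CPM in naive and 134 CPM in Th17, against 1.14 in Th0 and 12.5 in Treg, or at least 546-fold higher. Its level in Th17 was far above that of Treg and Th0. Scrt1, a transcriptional repressor known from neurons, was at 0.245 CPM in naive and 155 CPM in Th17, against 1.26 in Th0 and 0.271 in Treg. Of the 12 genes with the largest ratios, Scrt1 had the largest ratio of Th17 to Treg. Lama5, a laminin chain, was at 0.817 CPM in naive and 351 CPM in Th17, against 98.1 in Th0 and 450.4 in Treg, or 429-fold higher (interval 233 to 896). Timp1, an inhibitor of matrix proteases, was at 0.327 CPM in naive and 91.2 CPM in Th17, against 10.99 in Th0 and 35.5 in Treg, and Slc4a11, a membrane transporter, at 0.653 CPM in naive and 137 CPM in Th17, against 16.8 in Th0 and 171 in Treg. Tg, the thyroglobulin gene, was at 1.31 CPM in naive and 186 CPM in Th17, against 251 in Th0 and 219.8 in Treg. Tg overlaps Sla, an adaptor gene of lymphocytes, on the opposite strand, with Sla at 228.8 CPM in naive and 152.9 in Th17. Any reads from sequence that the 2 genes share could not be told apart by strand.

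In all, 39 genes had at most 3 reads in naive and at least 10 CPM in Th17. Of these, 27 reached 10 CPM in Treg, 4 in Th0, and 11 in neither. Large gains in absolute level came from Il2ra, Ecm1, Scd2, Pgk1, Hif1a, Tgm2, Aldoa and Pkm beside the elongation factors. Ecm1, an extracellular matrix protein that Th2 cells use to leave lymph nodes, was at 60.1 CPM in naive and 1296 CPM in Th17, against 134 in Th0 and 1060.3 in Treg, or 21.6-fold higher (interval 20.04 to 23.3). Tgm2, a transglutaminase, was at 188 CPM in naive and 1670.3 CPM in Th17, against 17.9 in Th0 and 1115 in Treg, or 8.898-fold higher (interval 8.52 to 9.29). Tgm2 was low in Th0 and high in both polarised cultures.

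Most of the 12 lowest ratios fell on genes of the macrophage and neutrophil marker lists, and the cells behind them were not tested. Ngp and Ltf, granule proteins of neutrophils, were at 471 CPM in naive and 0.0762 CPM in Th17 and at 277 CPM in naive and 0 CPM in Th17. Pydc4, C1qa, C1qb, C1qc, Lyz2, Vcam1, Itgad, Csf1r, Slc40a1 and Adgre1 made up the rest of the 12, all of them below 5 CPM in each culture except Lyz2. Pydc4 and Itgad were on no cell type list, and both, like Lyz2, have near-identical copies. C1qa, of the complement system and made by tissue macrophages, was at 289 CPM in naive and 0.229 CPM in Th17, against 0.343 in Th0 and 1.804 in Treg, with 3 reads in Th17.

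Among culture-expressed genes outside those lists, the lowest included antigen presentation genes, H2-Aa at 896 CPM in naive and 13.9 CPM in Th17, against 37.8 in Th0 and 15.1 in Treg and Cd74 at 2305 CPM in naive and 50.4 CPM in Th17, against 121 in Th0 and 34.6 in Treg, which B cells and macrophages carry in bulk. Apoe, Trf and Cd5l, also known from macrophages, were in the same 12, with Apoe at 345 CPM in naive and 8.92 CPM in Th17, against 8.36 in Th0 and 12.3 in Treg. Rgs2, a regulator of G protein signals, was at 309 CPM in naive and 8.08 CPM in Th17, against 17.97 in Th0 and 10.6 in Treg, or 38.3-fold lower (interval 31.6 to 46.9). The largest losses in absolute level outside antigen presentation included Zfp36l2, an RNA-decay factor that supports quiescence, at 1713 CPM in naive and 208 CPM in Th17, against 369 in Th0 and 194 in Treg, or 8.23-fold lower (interval 7.903 to 8.56). Chd3, a chromatin remodeller, was at 1416 CPM in naive and 237 CPM in Th17, against 381 in Th0 and 343 in Treg, Macf1, a cytoskeletal linker, at 2620.2 CPM in naive and 827 CPM in Th17, against 987 in Th0 and 886 in Treg, and Tmsb4x, thymosin beta 4, at 2543 CPM in naive and 1424 CPM in Th17. For Zfp36l2, Chd3 and Macf1 all 3 cultures stood below naive.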

How the data were processed

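RNA of 4 libraries of mouse splenic CD4+ T cells, 1 per group (naive, Th0, Th17 and Treg), was sequenced on an Illumina HiSeq platform after TRIzol extraction, per the labels' protocols. Groups came from the cell type in the labels. The values analysed are the authors' raw counts of reads for each gene, whole numbers taken as deposited. Per the file headers the authors gave FPKM as well, which served in 1 alternative only. Bowtie2 and RSEM, with the builds mm10 and GRCm38.p6, are named in the submitters' processing notes. No source used here gives their versions, the gene annotation, the read length or the strandedness. Of the identifiers, 34344 (98.8%) were found in GENCODE vM21.

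Library totals ran from 10256627 to 12414372 reads. Counts were scaled by TMM factors (edgeR 4.0.16, R 4.3.3) computed over all 4 libraries from genes with at least 10 counts in 1 of them. The naive factor was 1.03 and the Th17 factor 1.06, with 0.850 in Th0 and 1.08 in Treg. At this depth 1 read was worth 0.0817 CPM in naive and 0.0762 CPM in Th17. Genes with at least 10 counts in naive or Th17 were compared on log2(CPM + 1), which understates the ratio of low genes. Folds were taken without the added 1 CPM. Where a library had no read, the fold was taken against 3 reads in that library and is written as at least that size. Intervals of folds are exact conditional (Clopper-Pearson) 95% intervals, and those of levels are exact Poisson intervals. Reads without molecular identifiers are not independent molecules, and both kinds of interval speak for counting error alone. No p-value, SD or list test was computed, and lists are described by counts and medians.

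The genes to name followed a rule: the 12 highest and 12 lowest ratios among genes that reached 10 CPM on either side, the 12 lowest among culture-expressed genes outside the cell type lists, the 10 largest gains and losses in CPM, and up to 5 called members of each list in each direction. All members of the Th17, Treg, quiescence, H3K36 and lysophospholipid acyltransferase lists were also eligible. Unnamed loci, receptor segments and mitochondrial genes were left out of the first parts. Further list members, mostly those called neither way, were named after their values were seen. The lists and the comparison were chosen with earlier results of these data known. Some list members are not reported here.

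Promoter windows came from RefSeq (GRCm38.p6, 32851 windows), matched by symbol, and 10244 compared genes had one. Alternatives covered the scaling (size factors of DESeq2 1.42.0, upper quartile, totals of the libraries, and TMM factors from culture-expressed genes), the pseudocount, the count filter and the authors' FPKM. Scripts ran under Python 3.11.15 with scipy 1.17.1, pandas 2.3.3 and numpy 2.4.6, and figures were drawn in matplotlib 3.10.9.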

Additional observations from a re-analysis of the deposited data

How the results depend on the processing

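The 4 counts of called genes stayed within 1.5 times of those reported under every alternative run but 1. With a pseudocount of 5 CPM in place of 1, the higher calls came to 1359 and the lower calls to 1611 over all genes, since low genes then need a larger difference. Under the 4 other scalings, higher calls ranged from 2111 to 2370 and lower calls from 2520 to 2735, and the median log2 ratio of all genes moved by -0.07 to 0.04. No call of the 338 named genes changed sign under the 9 alternatives. The call of 12 of them changed under at least 1 other scaling. These were Tcf7, Ccr6, Il6st, Nt5e, Agpat3, Mboat1, Ptprc, Idh1, Hspa9, Srm, Ctps and Decr1, all within a small margin of 2-fold. A pseudocount of 5 CPM took away the call of 20, and the authors' FPKM that of 18. Leaving out a library was not possible, since each group had 1. No paired analysis was possible because each group had 1 library. The depth limits ratios of genes near 3 reads, such as Il17a in naive.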
